A study of Homo sapiens with 12 samples.

Results

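The expression of 10 genes of the bone morphogenetic protein (BMP) and activin pathways was followed in SZ95 cells, sebocytes of an immortalised line that originated in human sebaceous gland. They are the ligand genes BMP2 and BMP4, the activin subunit gene INHBA, the antagonist genes FST, FSTL3, NOG and GREM1, and the target genes ID1, ID2 and ID3. A gene entered if the array's probe annotation gave its symbol and no other, and the probe set with the highest mean signal was to stand for it. All 10 genes had exactly 1 such probe set, so the level decided nothing, and the 10 stand among 18417 genes tested. The genes were named with earlier results of these arrays known, so their tests are not independent evidence. The RNA was hybridised to 12 whole-transcript arrays from Affymetrix, 3 in each of 4 groups: OLR1 siRNA with UV-PAPC, OLR1 siRNA untreated, scramble siRNA with UV-PAPC, and scramble siRNA untreated. All cells had been transfected by lipofection, and 24 h later the UV-PAPC groups received UV-oxidised PAPC at 25 µg/ml. PAPC is a phospholipid with arachidonic acid in its tail, and OLR1 encodes LOX-1, a cell-surface receptor that takes up oxidised low-density lipoprotein. All groups share 1 cell line and the transfection, and the labels name neither a vehicle or unoxidised PAPC group nor untransfected cells, so effects of oxidation and of the lipid or its vehicle cannot be told apart. How long the cells were exposed is not stated in the labels.

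BMPs and activins are secreted dimers of the transforming growth factor beta family. They bind pairs of serine/threonine kinase receptors, which phosphorylate SMAD proteins that enter the nucleus and regulate transcription. The ID genes are classical direct targets of BMP signalling through SMAD1 and SMAD5, and their products bind E proteins and keep them from DNA. Antagonists act outside the cell: noggin (NOG) and gremlin 1 (GREM1) bind BMPs, while follistatin (FST) and follistatin-like 3 (FSTL3) bind activins tightly. In skin, BMP and activin signals take part in hair follicle cycling and in the balance of growth and differentiation of epithelial cells.

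The values are log2 signals normalised by the authors, and a difference of 1 is a doubling. The array medians over the tested genes lay between 6.31 and 6.36, and Pearson's r across genes, which are not independent replicates, was 0.996 to 0.998 within groups and 0.988 to 0.995 between them. Separate cultures are not named for the replicates. The p-values therefore reflect the spread among these arrays alone, and that spread may be technical; with 3 arrays a group, their number limits the precision. OLR1 read 4.47, 4.33 and 4.41 in OLR1 siRNA cells with UV-PAPC, against 6.19, 5.49 and 5.74 in scramble cells with UV-PAPC. It read 4.66, 4.38 and 4.48 in untreated OLR1 siRNA cells, against 6.18, 5.56 and 5.35 in untreated scramble cells. The targeted gene was thus lower on every OLR1 siRNA array, 2.64-fold in UV-PAPC cells (adjusted p = 0.000162) and 2.28-fold in untreated cells (adjusted p = 0.000484). Its signal was not high, between percentiles 19.1 and 47.2 of the genes on an array. The labels name no different OLR1 siRNAs, so effects of lower OLR1 and other effects of the siRNA cannot be told apart. The epithelial keratin gene KRT7 (11.0 to 11.4) and the lipid desaturase genes SCD (10.3 to 10.6) and FADS2 (9.82 to 10.1) were high on all arrays. The melanocortin receptor gene MC5R, a marker of differentiated sebocytes, was low (3.94 to 4.34). The leukocyte gene PTPRC (3.12 to 3.47) and the fibroblast gene DCN (2.92 to 3.29) were low, although the collagen gene COL1A1 of the fibroblast list read 6.98 to 7.26. CDH5 (7.79 to 8.67), CD68 (9.21 to 9.92) and MITF (8.07 to 8.66), which mark endothelial cells, macrophages and melanocytes, were not low.

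**Figure D1:**
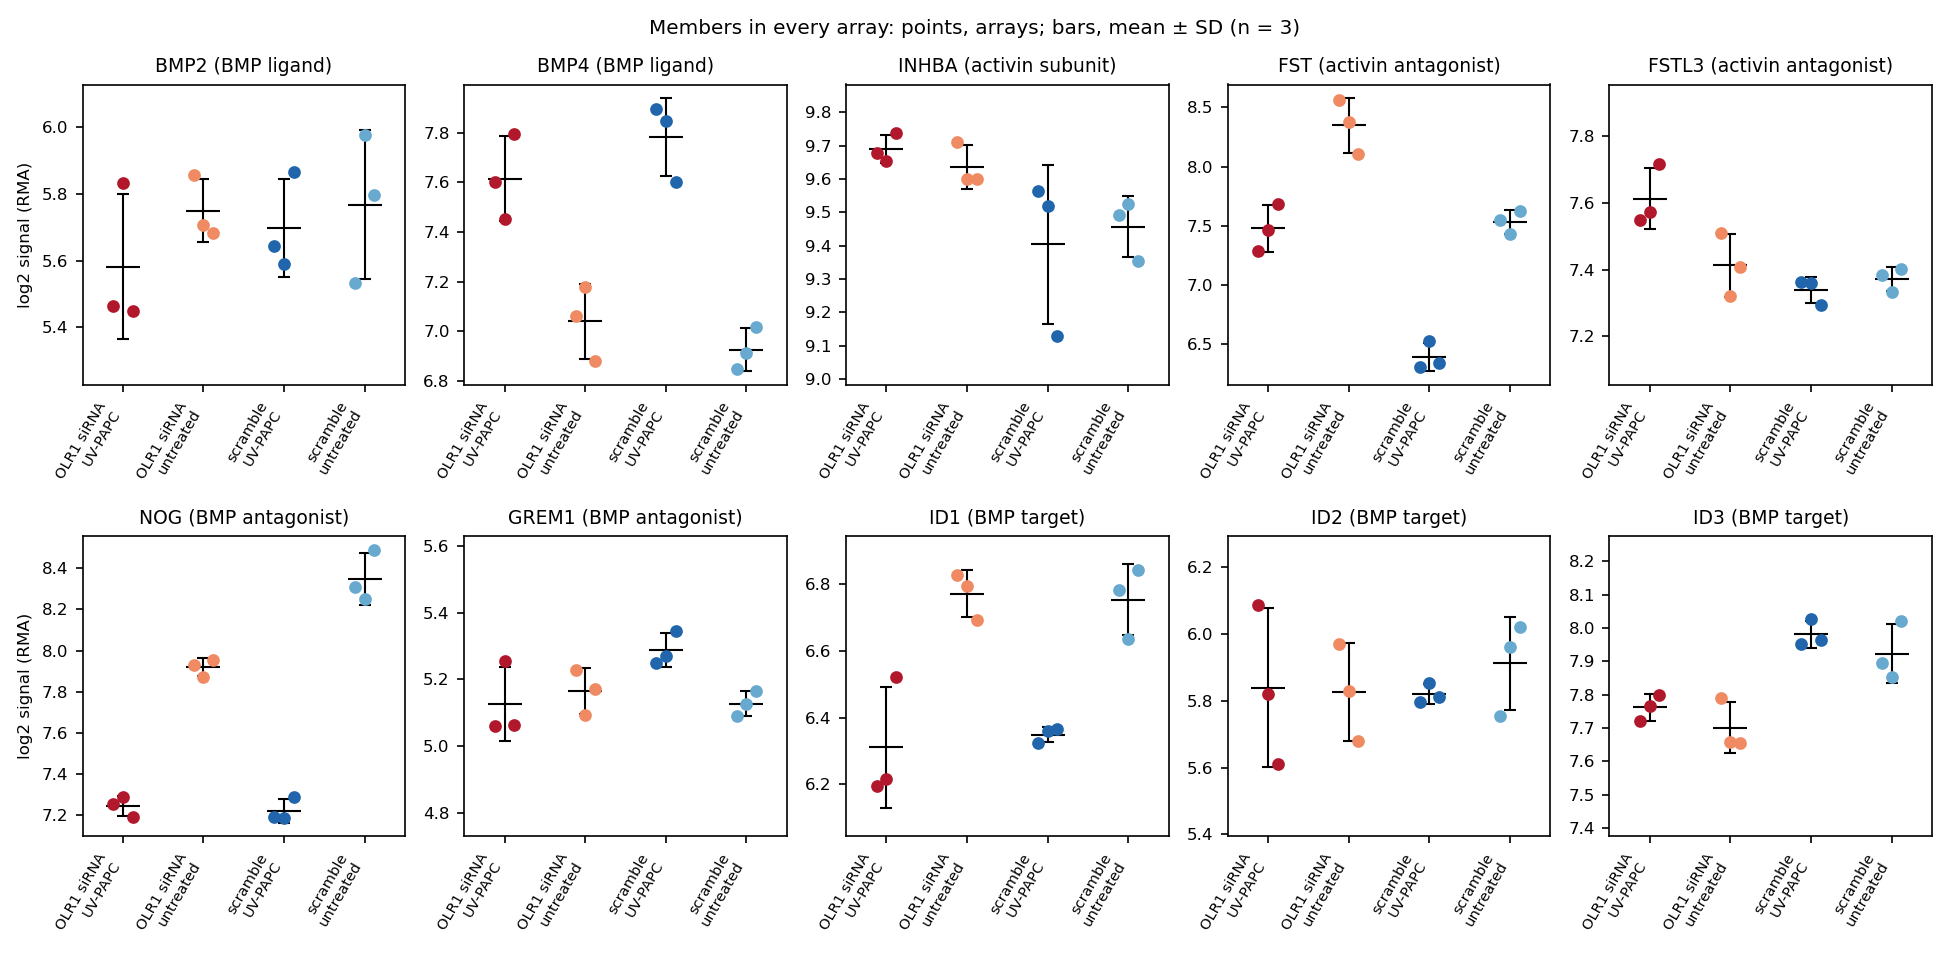
Log2 signal of the 10 genes on every array, 1 panel per gene with its own axis. Points are arrays, and bars give the mean ± SD of the 3 arrays of a group; FST and NOG span the widest ranges, and in BMP4, NOG and ID1 all UV-PAPC arrays lie to one side of all untreated arrays.

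With UV-PAPC, FST, NOG and ID1 fell and BMP4 rose under both siRNAs, and the other 6 genes did not pass the test in either. Under OLR1 siRNA this made 4 of 10 genes past the threshold, where 6.71% of all genes tested passed (3.46% rose and 3.25% fell). Under scramble siRNA it made 4 of 10, where 7.31% of all genes passed (2.67% rose and 4.64% fell). The threshold is a Benjamini-Hochberg adjusted p of 0.05 over all 18417 genes in limma's moderated test. The median log2 fold change of the 10 genes was -0.01 under OLR1 siRNA and -0.06 under scramble siRNA. The 3 arrays of each group did not overlap for 5 of the 10 genes under either siRNA, where 23.7% of all genes did not overlap under OLR1 siRNA and 24.1% under scramble siRNA. In bulk RNA, a change in the share of cells that express a gene and a change in RNA per cell cannot be told apart.

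Among the ligands, BMP4, a BMP that acts in epithelial and mesenchymal tissues, read 7.60, 7.45 and 7.79 in OLR1 siRNA cells with UV-PAPC, against 7.06, 7.18 and 6.88 in untreated OLR1 siRNA cells. In scramble cells it read 7.89, 7.85 and 7.60 with UV-PAPC, against 6.85, 6.91 and 7.02 untreated. Every UV-PAPC array thus lay above every untreated array, and the siRNA groups overlapped within each treatment. BMP4 rose 1.49-fold under OLR1 siRNA (log2 fold change 0.57, 95% confidence interval 0.36 to 0.79, adjusted p = 0.00205). Under scramble siRNA it rose 1.81-fold (0.85, 0.64 to 1.07, adjusted p = 6.17e-05). BMP2, a close relative of BMP4, gave no such separation. It read 5.46, 5.83 and 5.45 with UV-PAPC, against 5.86, 5.71 and 5.68 untreated, under OLR1 siRNA, and 5.64, 5.59 and 5.86, against 5.53, 5.98 and 5.80, under scramble siRNA. The BMP2 differences were -0.17 (-0.42 to 0.08) under OLR1 siRNA and -0.07 (-0.32 to 0.18) under scramble siRNA, and the arrays overlapped in both. INHBA encodes the subunit whose dimer is activin A, and its signal ranged from 9.13 to 9.74 over the 12 arrays. Its UV-PAPC differences were 0.05 (-0.15 to 0.26) under OLR1 siRNA and -0.05 (-0.26 to 0.15) under scramble siRNA, with overlapping arrays.

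FST, the activin antagonist, had the largest UV-PAPC estimate of the 10 genes under either siRNA, with NOG close to it under scramble siRNA. It read 7.28, 7.46 and 7.68 in OLR1 siRNA cells with UV-PAPC, against 8.56, 8.38 and 8.10 in untreated OLR1 siRNA cells. In scramble cells it read 6.30, 6.52 and 6.34 with UV-PAPC, against 7.55, 7.43 and 7.62 untreated. All UV-PAPC arrays lay below the untreated arrays of the same siRNA, and the scramble UV-PAPC arrays were the lowest of the 12. FST fell 1.83-fold under OLR1 siRNA (log2 fold change -0.87, -1.12 to -0.63, adjusted p = 0.000157) and 2.21-fold under scramble siRNA (-1.15, -1.39 to -0.90, adjusted p = 1.13e-05). The group means were 7.48 ± 0.20 for OLR1 siRNA with UV-PAPC, 8.35 ± 0.23 for OLR1 siRNA untreated, 6.39 ± 0.12 for scramble with UV-PAPC and 7.53 ± 0.10 for scramble untreated (SD, n = 3 each). In the order of levels, untreated scramble cells and OLR1 siRNA cells with UV-PAPC were neighbours whose arrays overlapped, and the other neighbours did not overlap.

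NOG, the BMP antagonist, read 7.25, 7.29 and 7.19 in OLR1 siRNA cells with UV-PAPC, against 7.93, 7.87 and 7.95 in untreated OLR1 siRNA cells. In scramble cells it read 7.19, 7.18 and 7.29 with UV-PAPC, against 8.31, 8.25 and 8.49 untreated. The 6 UV-PAPC arrays lay together between 7.18 and 7.29, whichever siRNA the cells had received, and the untreated arrays formed 2 separate levels. NOG fell 1.60-fold under OLR1 siRNA (-0.68, -0.83 to -0.52, adjusted p = 2.12e-05) and 2.19-fold under scramble siRNA (-1.13, -1.28 to -0.98, adjusted p = 8.05e-08). GREM1 and FSTL3 did not pass the test. GREM1 lay higher on all UV-PAPC arrays than on all untreated arrays under scramble siRNA (5.25, 5.27 and 5.35, against 5.09, 5.13 and 5.17), by 0.16 (0.01 to 0.31, adjusted p = 0.215), and its arrays overlapped under OLR1 siRNA (-0.04, -0.19 to 0.11). FSTL3 showed the reverse arrangement, with higher UV-PAPC arrays under OLR1 siRNA (7.55, 7.57 and 7.72, against 7.51, 7.32 and 7.41), by 0.20 (0.05 to 0.35, adjusted p = 0.116), and overlapping arrays under scramble siRNA (-0.03, -0.18 to 0.11).

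Of the 3 ID genes, which encode inhibitors of basic helix-loop-helix factors, only ID1 passed the test for UV-PAPC. ID1 read 6.19, 6.22 and 6.52 in OLR1 siRNA cells with UV-PAPC, against 6.83, 6.80 and 6.69 in untreated OLR1 siRNA cells, and 6.32, 6.36 and 6.37 in scramble cells with UV-PAPC, against 6.78, 6.64 and 6.84 in untreated scramble cells. All UV-PAPC arrays lay below all untreated arrays, and the siRNA groups overlapped within each treatment. ID1 fell 1.38-fold under OLR1 siRNA (-0.46, -0.64 to -0.28, adjusted p = 0.00307) and 1.32-fold under scramble siRNA (-0.40, -0.59 to -0.22, adjusted p = 0.00792). ID2 ranged from 5.61 to 6.09 over the 12 arrays with all groups overlapping, and its differences were 0.01 (-0.22 to 0.24) under OLR1 siRNA and -0.09 (-0.32 to 0.14) under scramble siRNA. ID3 differed by 0.06 under OLR1 siRNA (-0.08 to 0.21) and by 0.06 under scramble siRNA (-0.09 to 0.20). The intervals of ID2 and ID3 do not reach the estimates for ID1, but the differences between genes were not tested.

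**Figure D2:**
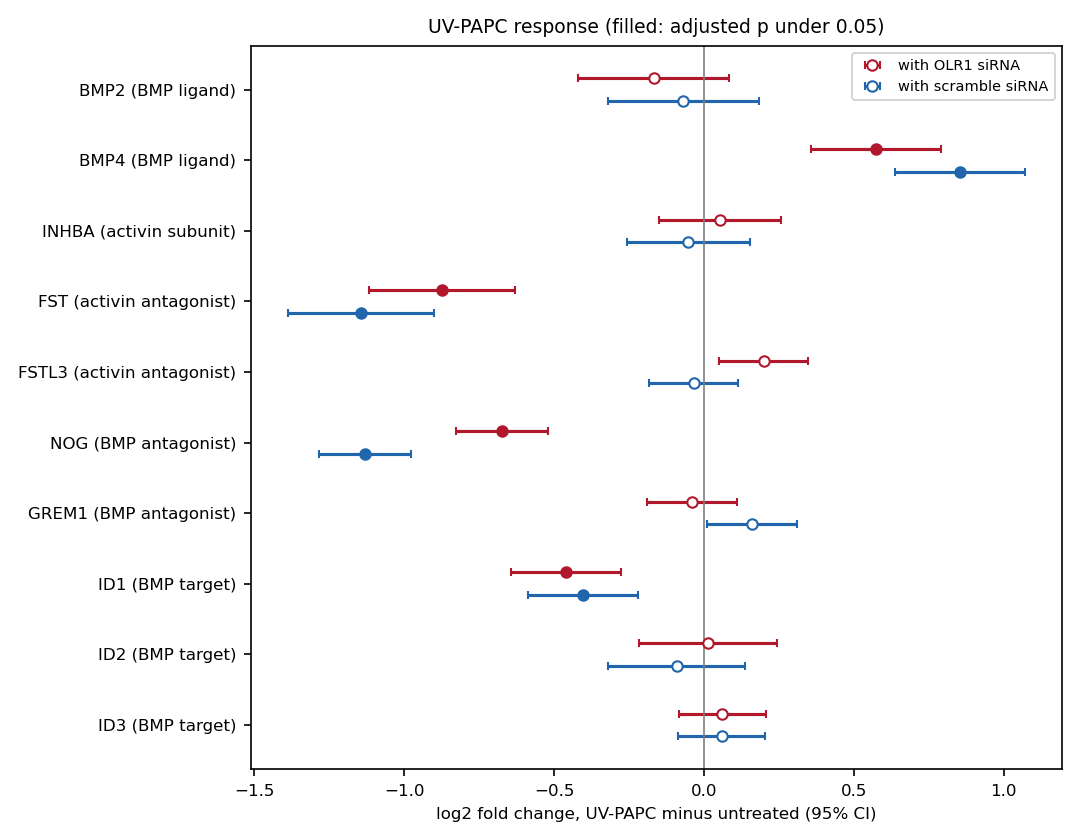
Log2 fold change of UV-PAPC over untreated cells for each gene, with 95% confidence intervals, for OLR1 siRNA (upper mark of each pair) and scramble siRNA (lower mark). Filled marks passed the adjusted p threshold: FST, NOG and ID1 lie left of 0 and BMP4 right of 0 under both siRNAs.

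The 4 promoters below belong to FST, which had the largest estimates, and to the 3 ID genes, of which ID1 alone passed the test for UV-PAPC. Each is the 250 bases before the RefSeq start site on GRCh38.p14, written 5′ to 3′ on the gene's strand: FST at chr5:53480379-53480628 (plus), ID1 at chr20:31605039-31605288 (plus), ID2 at chr2:8681806-8682055 (plus) and ID3 at chr1:23559502-23559751 (minus). Capitals mark matches to 4 motifs on either strand. TATAAA is a core promoter element found shortly before many start sites. CCAAT is a promoter element bound by nuclear factor Y. GGCGCC is a motif that SMADs of the BMP branch can bind. GTCTAGAC is a palindrome that SMAD3 and SMAD4 can bind.
FST: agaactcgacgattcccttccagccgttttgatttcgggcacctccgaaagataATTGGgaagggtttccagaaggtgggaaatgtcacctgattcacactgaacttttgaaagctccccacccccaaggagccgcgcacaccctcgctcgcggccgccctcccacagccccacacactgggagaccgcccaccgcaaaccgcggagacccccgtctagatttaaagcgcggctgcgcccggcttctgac
ID1: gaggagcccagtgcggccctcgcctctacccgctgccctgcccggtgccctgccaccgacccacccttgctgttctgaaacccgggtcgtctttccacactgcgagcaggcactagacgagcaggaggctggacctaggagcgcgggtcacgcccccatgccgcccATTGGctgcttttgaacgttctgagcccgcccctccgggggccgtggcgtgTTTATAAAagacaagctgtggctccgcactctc
ID2: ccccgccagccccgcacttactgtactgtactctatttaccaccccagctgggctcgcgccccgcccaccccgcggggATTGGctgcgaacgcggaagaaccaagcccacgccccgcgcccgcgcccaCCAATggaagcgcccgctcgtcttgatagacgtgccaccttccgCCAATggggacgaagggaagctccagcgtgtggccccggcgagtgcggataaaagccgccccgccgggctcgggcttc
ID3: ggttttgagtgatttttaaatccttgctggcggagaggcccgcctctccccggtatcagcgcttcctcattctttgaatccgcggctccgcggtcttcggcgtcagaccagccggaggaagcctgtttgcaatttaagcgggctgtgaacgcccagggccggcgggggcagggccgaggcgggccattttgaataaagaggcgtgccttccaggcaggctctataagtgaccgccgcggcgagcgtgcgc
The ID1 window held TATAAA on both strands in 2 overlapping matches, which start 33 and 31 bases before the start site, and CCAAT 84 bases before it. The ID2 window held CCAAT 3 times (172, 122 and 78 bases before the start site) and FST held it once (196 bases before it). None of the 4 motifs occurred in the ID3 window, and GGCGCC and GTCTAGAC occurred in none of the 4 windows. Of 35116 RefSeq promoter windows of the same length, 10.7% held TATAAA, 32% CCAAT, 16.4% GGCGCC and 0.182% GTCTAGAC. Of the other genes with a listed window, FSTL3 held GGCGCC, GREM1 held it at 1 of its 2 listed start sites and BMP4 at 1 of its 3. These letters describe the windows only; binding was not measured.

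With OLR1 siRNA, FST passed the threshold in both treatments, and NOG, FSTL3 and ID3 passed it in 1 treatment each. For ID3 the difference was -0.22 in both, with an adjusted p of 0.0469 in UV-PAPC cells and 0.0524 in untreated cells in limma. In UV-PAPC cells FST and FSTL3 rose and ID3 fell, which is 3 of 10 genes where 12.5% of all genes passed (7.94% rose and 4.56% fell). In untreated cells FST rose and NOG fell, which is 2 of 10 where 9.71% of all genes passed (5.29% rose and 4.42% fell). The median log2 fold change of the 10 genes was -0.01 in UV-PAPC cells and 0.03 in untreated cells. The arrays did not overlap for 4 of the 10 genes in either treatment, where 30.8% of all genes did not overlap in UV-PAPC cells and 28.7% in untreated cells.

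FST was 2.13-fold higher in OLR1 siRNA cells than in scramble cells when both had received UV-PAPC (log2 fold change 1.09, 0.85 to 1.33, adjusted p = 2.41e-05), and 1.76-fold higher when both were untreated (0.82, 0.57 to 1.06, adjusted p = 0.000249). Its OLR1 siRNA arrays lay above the scramble arrays in both treatments, so the siRNA and UV-PAPC moved FST in opposite directions. FSTL3, which shares follistatin domains with FST, read 7.55, 7.57 and 7.72 in OLR1 siRNA cells with UV-PAPC, against 7.36, 7.36 and 7.29 in scramble cells with UV-PAPC. All OLR1 siRNA arrays were higher, by 0.27 (0.12 to 0.42, adjusted p = 0.018), and the call was lost without OLR1 siRNA UV-PAPC replicate 3 (0.22, adjusted p = 0.0832) or scramble UV-PAPC replicate 3 (0.25, adjusted p = 0.0636). In untreated cells FSTL3 read 7.51, 7.32 and 7.41 with OLR1 siRNA, against 7.38, 7.33 and 7.40 with scramble siRNA, and the groups overlapped (0.04, -0.11 to 0.19).

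NOG fell 1.35-fold with OLR1 siRNA in untreated cells (-0.43, -0.59 to -0.28, adjusted p = 0.00111), where its arrays lay below those of scramble cells. In UV-PAPC cells the difference was 0.02 (-0.13 to 0.18, adjusted p = 0.872) and the arrays overlapped. GREM1 differed by -0.16 in UV-PAPC cells (-0.31 to -0.01, adjusted p = 0.144) and by 0.04 in untreated cells (-0.11 to 0.19), and its arrays overlapped in both.

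INHBA read 9.68, 9.65 and 9.74 in OLR1 siRNA cells with UV-PAPC, against 9.56, 9.52 and 9.13 in scramble cells with UV-PAPC, and 9.71, 9.60 and 9.60 in untreated OLR1 siRNA cells, against 9.49, 9.52 and 9.35 in untreated scramble cells. Every OLR1 siRNA array lay above every scramble array, but the differences of 0.29 (0.08 to 0.49, adjusted p = 0.064) in UV-PAPC cells and 0.18 (-0.03 to 0.38, adjusted p = 0.293) in untreated cells did not pass the threshold. Scramble UV-PAPC replicate 3 was the lowest of the 12 arrays for INHBA, and without it the difference in UV-PAPC cells was 0.15 (adjusted p = 0.255). BMP4 differed by -0.17 in UV-PAPC cells (-0.38 to 0.05) and by 0.11 in untreated cells (-0.10 to 0.33), and BMP2 by -0.12 (-0.37 to 0.13) and -0.02 (-0.27 to 0.23), all with overlapping arrays.

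ID3 read 7.72, 7.77 and 7.80 in OLR1 siRNA cells with UV-PAPC, against 7.95, 8.03 and 7.96 in scramble cells with UV-PAPC, and 7.79, 7.66 and 7.65 in untreated OLR1 siRNA cells, against 7.89, 7.85 and 8.02 in untreated scramble cells. All OLR1 siRNA arrays lay below all scramble arrays. The difference was -0.22 in both treatments, and it lay on either side of the threshold: the adjusted p was 0.0469 in UV-PAPC cells (-0.36 to -0.07) and 0.0524 in untreated cells (-0.37 to -0.08). In UV-PAPC cells ID3 lost its call in 13 of 19 alternative settings, with adjusted p from 0.0540 to 0.154, and 10 of these left out 1 array. ID1 differed by -0.04 (-0.22 to 0.14) and 0.02 (-0.17 to 0.20), and ID2 by 0.02 (-0.21 to 0.25) and -0.09 (-0.31 to 0.14), in UV-PAPC and untreated cells in that order. Of the ID genes, ID1 was called with UV-PAPC, and ID3 with OLR1 siRNA in UV-PAPC cells. For OLR1 siRNA, the ID1 interval in UV-PAPC cells and the ID2 interval in untreated cells reached the ID3 estimate. The ID1 interval in untreated cells and the ID2 interval in UV-PAPC cells did not reach it. Differences between these genes were not tested.

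**Figure D3:**
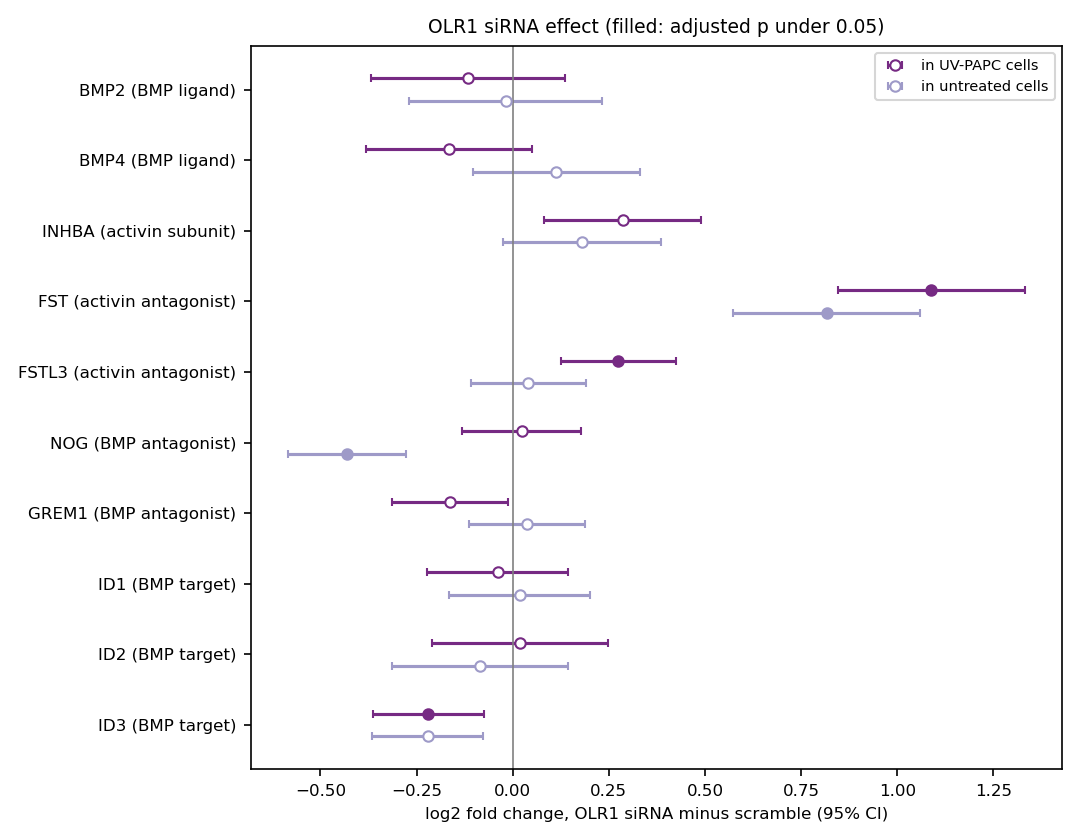
Log2 fold change of OLR1 siRNA over scramble siRNA for each gene, with 95% confidence intervals, in UV-PAPC cells (upper mark of each pair) and untreated cells (lower mark). Filled marks passed the adjusted p threshold: FST in both treatments, FSTL3 and ID3 in UV-PAPC cells and NOG in untreated cells.

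CDH5, CD68 and MITF moved with the same contrast. In UV-PAPC cells they rose by 0.50, 0.44 and 0.43 on the log2 scale with OLR1 siRNA, and in untreated cells by 0.65, 0.40 and 0.26. Each was the only called gene of the 5 measured in its marker list, and 0 of 9 fibroblast, 0 of 7 epithelial and 0 of 12 sebocyte markers were called. The mean signal of the endothelial list was 5.01 to 5.06 in OLR1 siRNA cells with UV-PAPC, against 4.94 to 4.99 in scramble cells with UV-PAPC, and 5.092 to 5.139 in untreated OLR1 siRNA cells, against 5.005 to 5.066 in untreated scramble cells. The leukocyte list gave 4.94 to 5.06, against 4.89 to 4.94, with UV-PAPC and 4.99 to 5.06, against 4.90 to 4.99, untreated. The melanocyte list gave 5.30 to 5.36, against 5.40 to 5.44, with UV-PAPC and 5.35 to 5.45, against 5.35 to 5.38, untreated. In UV-PAPC cells the uncalled endothelial genes all read lower with OLR1 siRNA (PECAM1 -0.03, VWF -0.06, TEK -0.01, KDR -0.07). So did the uncalled melanocyte genes (MLANA -0.24, PMEL -0.17, TYR -0.26, SOX10 -0.23). The uncalled leukocyte genes went both ways (PTPRC 0.04, CD3E -0.08, CD14 -0.11, LYZ 0.10). In untreated cells the uncalled genes of each of these lists went both ways. The part of CDH5, CD68 and MITF in the results was not tested. With UV-PAPC, 4 of the 12 sebocyte markers were called under each siRNA. PPARG, a regulator of lipid storage genes, fell by 0.35 under OLR1 siRNA and by 0.47 under scramble siRNA. The lipid droplet gene PLIN2 rose by 0.67 under OLR1 siRNA and by 0.58 under scramble siRNA, and ELOVL5 by 0.42 and 0.39. MUC1 was called under OLR1 siRNA only (-0.34) and PRDM1 under scramble siRNA only (-0.40). Under scramble siRNA MITF fell by 0.23 and the epithelial cadherin gene CDH1 by 0.24.

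The size of the UV-PAPC response was compared between siRNAs by the difference of the responses, OLR1 siRNA minus scramble siRNA. No member passed in limma, and 0% of the 18417 genes did; 2 members and 1004 genes had an unadjusted p under 0.05. NOG differed by 0.45 (0.24 to 0.67), which was the lowest p of the 10 and rank 14 of all genes (unadjusted p = 0.000423, adjusted p = 0.52). Its adjusted p lay between 0.241 and 0.957 over 18 alternatives. FSTL3 differed by 0.23 (0.02 to 0.44, unadjusted p = 0.0322, adjusted p = 0.904), FST by 0.27 (-0.07 to 0.62) and BMP4 by -0.28 (-0.59 to 0.03). ID1 differed by -0.06 (-0.32 to 0.20) and ID3 by 0.00 (-0.20 to 0.21). A larger or smaller response of any of the 10 genes under OLR1 siRNA was not detectable with these arrays after adjustment.

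**Figure D4:**
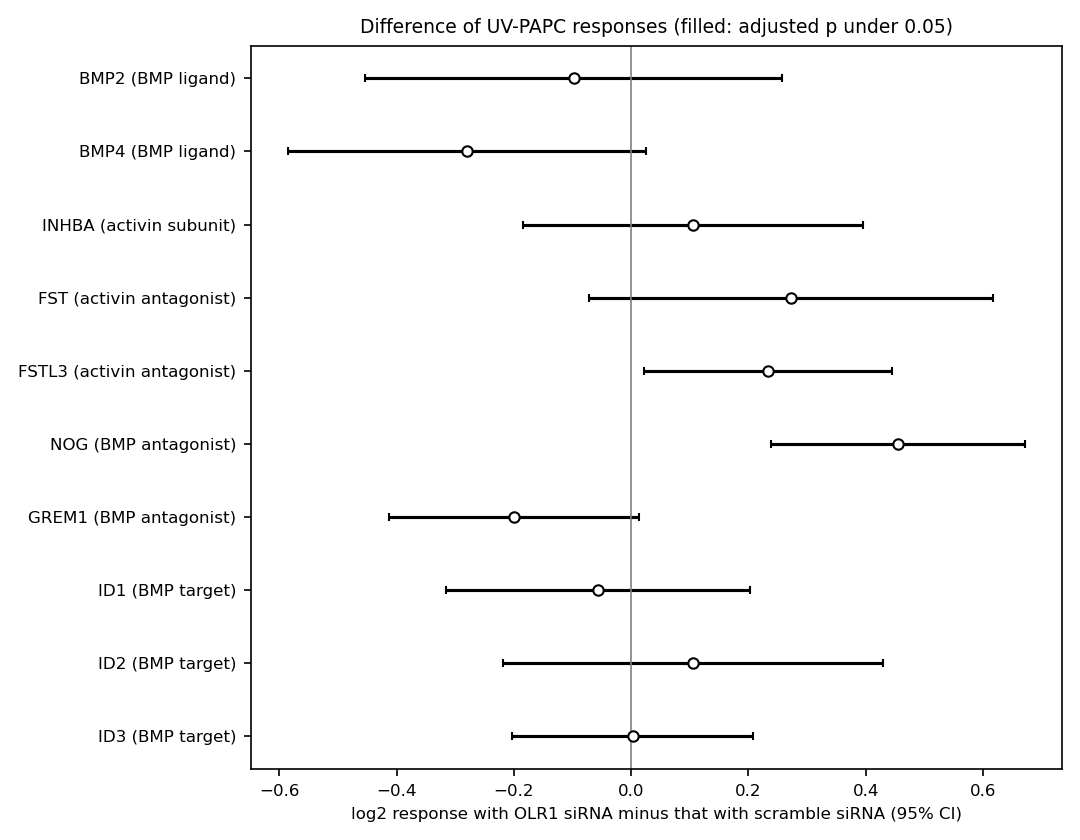
Difference of the UV-PAPC responses, OLR1 siRNA minus scramble siRNA, on the log2 scale with 95% confidence intervals for the 10 genes. The intervals of NOG and FSTL3 do not include 0, and none of the 10 passed after adjustment over all genes.

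Averages over the other factor were added after the data had been seen. Averaged over siRNAs, UV-PAPC changed the same 4 of 10 genes, where 14% of all genes passed (5.95% rose and 8.03% fell): BMP4 by 0.71, FST by -1.01, NOG by -0.90 and ID1 by -0.43 on the log2 scale (highest adjusted p 0.000116). Averaged over treatments, OLR1 siRNA changed 5 of 10 genes, where 23% of all genes passed (12.9% rose and 10.2% fell): INHBA by 0.23 (adjusted p = 0.0219), FST by 0.95 (7.25e-07), FSTL3 by 0.16 (0.0318), NOG by -0.20 (0.00865) and ID3 by -0.22 (0.00365). The average for NOG joins an effect in untreated cells with a difference near 0 in UV-PAPC cells.

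Among 84 other measured genes of the pathways, few moved with UV-PAPC. Of 90 listed genes, 29 of 30 ligands, 10 of 12 antagonists, 17 of 19 receptors and co-receptors, 14 of 14 SMADs and regulators, 11 of 12 targets and 3 of 3 E protein genes were measured. Under OLR1 siRNA 0 rose and 2 fell (2.38%), and under scramble siRNA 1 rose and 5 fell (7.14%), shares below and near those of all genes. TGFBR2, the type II receptor for transforming growth factor beta, read 7.67, 7.50 and 7.58 in OLR1 siRNA cells with UV-PAPC, against 7.94, 7.87 and 8.05 in untreated OLR1 siRNA cells, and 8.15, 8.18 and 7.92 in scramble cells with UV-PAPC, against 8.61, 8.59 and 8.58 in untreated scramble cells. Its 3 untreated scramble arrays were the highest of the 12. It fell by 0.37 (adjusted p = 0.00778) under OLR1 siRNA and by 0.51 (adjusted p = 0.000673) under scramble siRNA. SMAD3, a signal carrier of activins and transforming growth factor beta, read 9.46, 9.50 and 9.61 in OLR1 siRNA cells with UV-PAPC, against 9.83, 9.81 and 9.95 in untreated OLR1 siRNA cells, and 9.24, 9.24 and 9.18 in scramble cells with UV-PAPC, against 9.69, 9.61 and 9.76 in untreated scramble cells. It fell by 0.34 (adjusted p = 0.00533) under OLR1 siRNA and by 0.47 (adjusted p = 0.00045) under scramble siRNA. These were the genes called under both siRNAs, and their UV-PAPC arrays lay below the untreated arrays in each. Under scramble siRNA the ligand gene TGFB2 (-0.34, adjusted p = 0.0239), the extracellular BMP regulator gene BMPER (-0.44, 0.00087) and the SMAD co-repressor gene SKIL (-0.28, 0.0252) also fell, and the homeobox gene MSX1, a BMP target in development, rose (0.34, 0.0255). TGFBR2, SMAD3 and BMPER kept their calls in all alternative settings, while TGFB2 lost its call in 5 of 19 (highest adjusted p = 0.106), SKIL in 4 (0.106) and MSX1 in 5 (0.127), each among them without scramble untreated replicate 1 and without scramble UV-PAPC replicate 3. The BMP carriers SMAD1 and SMAD5, the inhibitors SMAD6 and SMAD7, and ID4 did not pass the test under either siRNA.

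With OLR1 siRNA, 5 of the 84 genes rose and 5 fell in UV-PAPC cells (11.9%), and 2 rose and 3 fell in untreated cells (5.95%). Of all genes, 12.5% passed in UV-PAPC cells and 9.71% in untreated cells, so neither share exceeded that of all genes. TGFBR2 was again lower, by 0.50 (adjusted p = 0.000809) in UV-PAPC cells and by 0.64 (adjusted p = 7.55e-05) in untreated cells, with no overlap of arrays. It was the gene called in both treatments, and the siRNA and UV-PAPC moved it in the same direction. In UV-PAPC cells, SMAD3 (0.30, adjusted p = 0.00996), the SMAD ubiquitin ligase gene SMURF1 (0.31, 0.0129), the activin receptor gene ACVR2A (0.34, 0.0418), the kinase gene MAP3K7 (0.23, 0.0498) and FSTL1 (0.24, 0.0404) rose. The ligand genes TGFB1 (-0.34, 0.0101) and AMH (-0.26, 0.0342), the receptor gene TGFBR1 (-0.24, 0.0238) and the homeobox gene DLX2 (-0.28, 0.0374) fell. In untreated cells, the type I receptor genes ACVR1 (0.35, adjusted p = 0.0163) and ACVR1B (0.25, 0.0281) rose, and the BMP type II receptor gene BMPR2 (-0.31, 0.0154) and BMPER (-0.31, 0.00966) fell. In UV-PAPC cells TGFBR2 and SMAD3 kept their calls in all alternative settings and the other 8 lost them in at least 1; in untreated cells TGFBR2 and BMPER kept theirs and the other 3 lost them. None of the 84 passed in the difference of responses, where 0 genes passed in all.

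**Figure D5:**
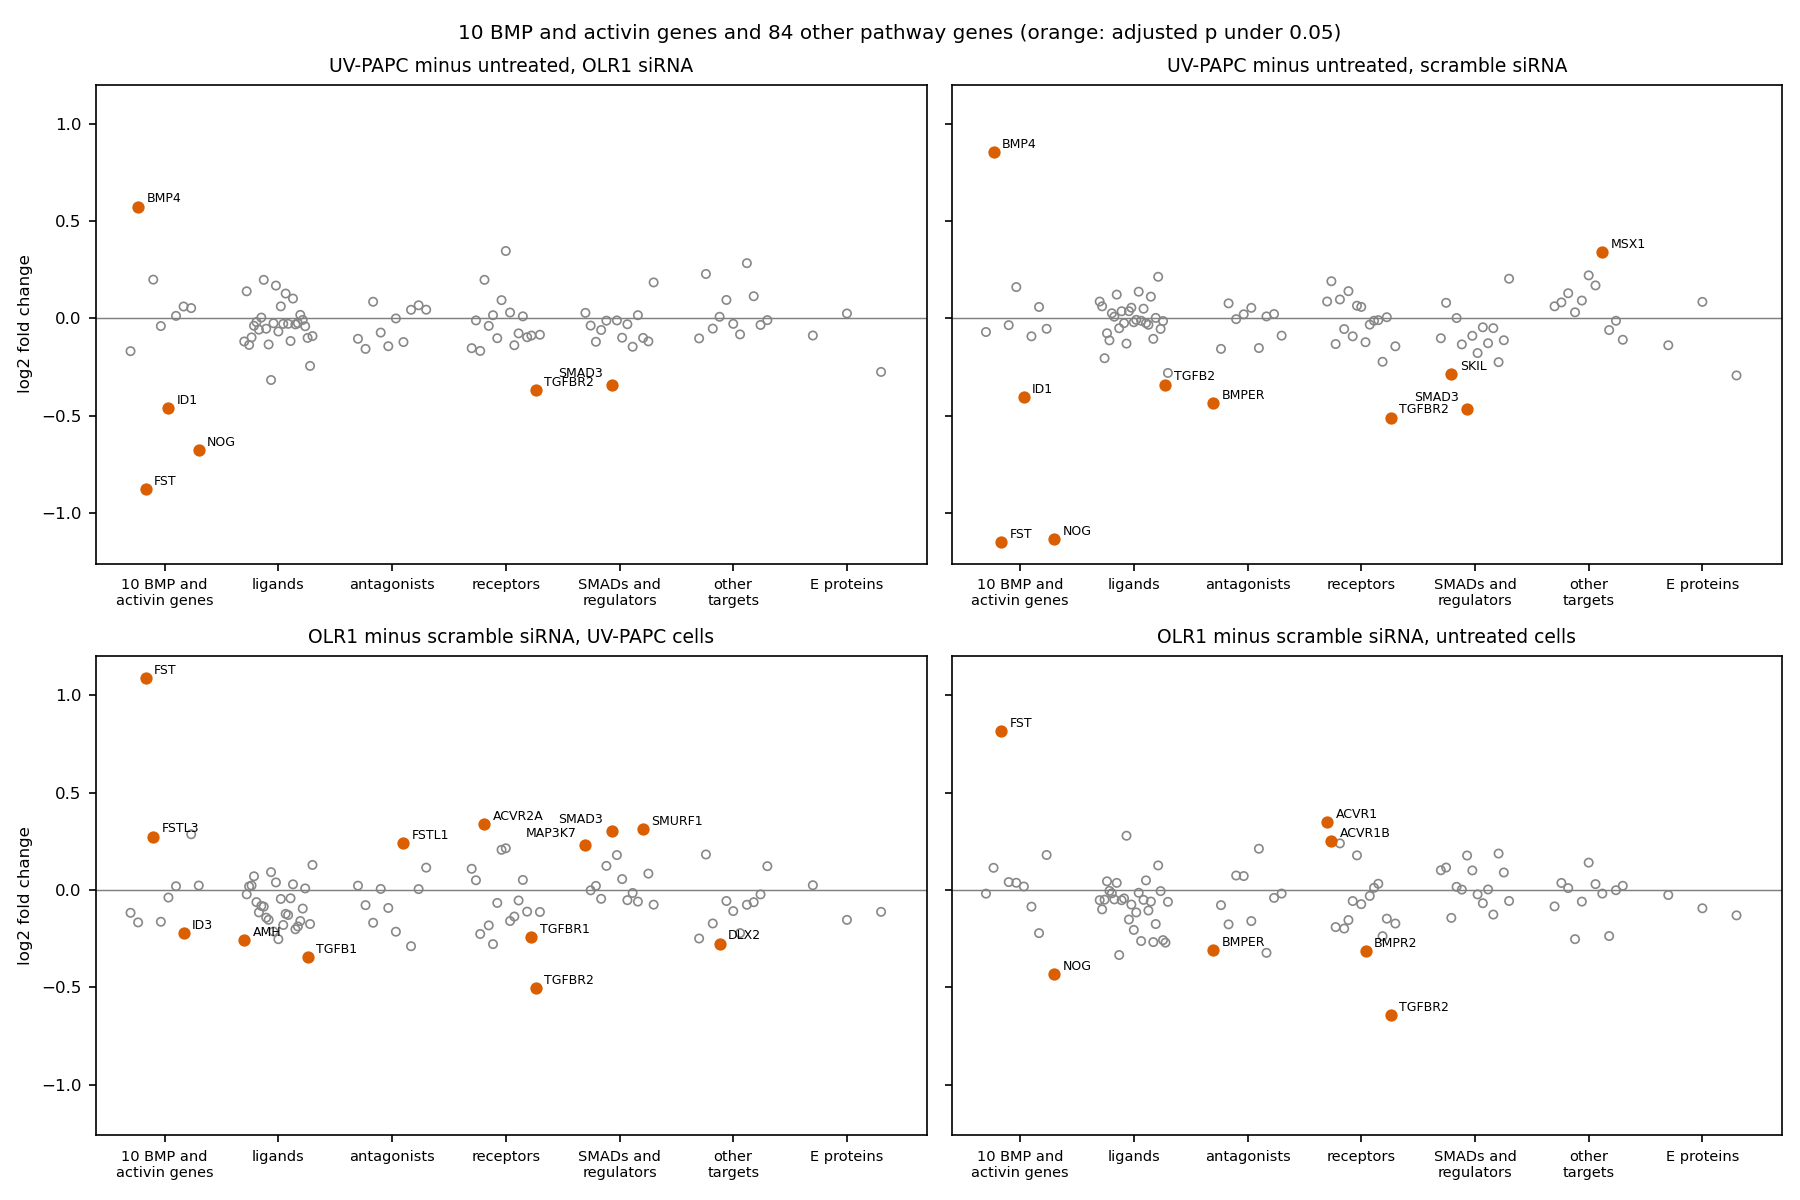
Log2 fold change of the 10 genes and of 84 other pathway genes, grouped by role, in 4 panels: UV-PAPC over untreated (top; OLR1 siRNA left, scramble siRNA right) and OLR1 over scramble siRNA (bottom; UV-PAPC cells left, untreated cells right). Orange points passed the adjusted p threshold; FST, NOG and BMP4 lie farther from 0 than the other pathway genes in the top panels, and FST does in the bottom panels.

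For the 4 genes called with UV-PAPC under both siRNAs, the 3 most similar profiles over the 12 arrays were sought by the root mean square difference of the centred log2 signals. FST was nearest to TOP2A (0.18), KIF20A (0.24) and CCNE2 (0.27), which encode a topoisomerase, a mitotic kinesin and a cyclin, where FST itself varied by 0.71. TOP2A differed with UV-PAPC by -0.65 under OLR1 siRNA and by -0.84 under scramble siRNA, and with OLR1 siRNA by 1.08 in UV-PAPC cells and by 0.89 in untreated cells. With UV-PAPC, KIF20A and CCNE2 differed by -0.63 and -0.36 under OLR1 siRNA, and by -0.68 and -0.67 under scramble siRNA. With OLR1 siRNA they differed by 1.13 and 1.12 in UV-PAPC cells, and by 1.09 and 0.80 in untreated cells. NOG (0.48) was nearest to HCAR2 (0.14), TNFAIP3 (0.14) and PLAU (0.15), which encode a metabolite receptor, an inhibitor of NF-kappaB signalling and urokinase. BMP4 (0.38) was nearest to CHRNA5 (0.13), ADCK2 (0.14) and P4HA2 (0.15), and ID1 (0.24) to TFAP2C (0.07), TRIM8 (0.07) and PLAC8 (0.08). Members of the BMP and activin set were left out of the candidates, so their likeness to one another was not tested. All profiles share the same 12 arrays. The median difference over all candidate genes was 0.72 for FST, 0.49 for NOG, 0.40 for BMP4 and 0.26 for ID1. Any profile has 3 nearest genes, so being nearest is no test of likeness.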

How the data were processed

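The deposited values are log2 signals per probe set. Per the submitters' processing notes, the authors computed them with RMA in version 1.3.1.187 of Affymetrix Expression Console. The RMA settings were not stated there, and RMA is known to compress large differences. Of 33297 entries, 19460 carried 1 gene symbol in the probe annotation (1754 several, 12083 none), which gave 18417 genes when each gene was represented by its brightest probe set on average. The members and lists were chosen with earlier results of these data known. The 4 groups were modelled together in limma 3.58.1, run in R 4.3.3 (eBayes, 8 residual and 7.66 prior degrees of freedom, two-sided, Benjamini-Hochberg adjustment within a comparison over all genes, threshold 0.05). The genes named were the 10 members, OLR1, called genes of the pathway and marker lists and the 3 nearest profiles of members called under both siRNAs; other pathway and marker genes were named after their values were seen. The fit was tested on simulated data. Promoters came from RefSeq on GRCh38.p14, where 8 of the 10 genes were listed (not NOG or BMP2); a window ends before its own start site, and for genes with several listed start sites it can lie within the transcript of another. Plots were made in Python 3.11.15 with matplotlib 3.10.9. Alternatives were trend and robust eBayes, genes above the median signal, averaging all probe sets of a gene, median centring, repeated quantile normalization, a fit on just the 6 arrays compared, a block for the replicate number, and fits without 1 array at a time.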

Additional observations from a re-analysis of the deposited data

How the results depend on the processing

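BMP4, FST, NOG and ID1 kept their UV-PAPC calls under both siRNAs, and FST (both treatments) and NOG (untreated cells) their OLR1 siRNA calls, in all alternatives run; the highest adjusted p was 0.0452, for ID1 under scramble siRNA. Of 1279 values of the 10 genes under the alternatives, 1247 stayed on the same side of the threshold, 22 lost a call, 10 gained one and 0 reversed, while 47 values that were never called changed sign. Part of this count had little room to change. Each of the 10 genes has 1 probe set, so averaging probe sets kept every estimate. Leaving out an array from outside a comparison kept its estimate too. In the difference of responses none of the 10 was called in any setting. The calls that changed belonged to FSTL3, ID3 and INHBA. ID3 gained its call in untreated cells in 5 settings (adjusted p 0.0182 to 0.0488), and INHBA gained one in UV-PAPC cells in 4 (0.0228 to 0.0371). FSTL3 gained one with UV-PAPC under OLR1 siRNA among genes above the median signal (0.0478). Averaged over treatments, FSTL3 lost its call in 4 settings (0.0608 to 0.0861) and INHBA in 3 (0.0548 to 0.0622). With 1 array left out, the members called for OLR1 siRNA numbered 1 to 3 in UV-PAPC cells (1 without replicate 3 of either UV-PAPC group) and 3 to 5 averaged over treatments (3 without OLR1 siRNA untreated replicate 1). The other pathway genes called numbered 3 to 6 with UV-PAPC under scramble siRNA, and with OLR1 siRNA 3 to 7 in untreated cells, 4 to 10 in UV-PAPC cells and 15 to 23 averaged. Genes called in all numbered 868 to 1340 with UV-PAPC under scramble siRNA (868 without scramble untreated replicate 1), and with OLR1 siRNA 1101 to 2055 in untreated cells (1101 without OLR1 siRNA untreated replicate 2, 1113 and 1158 without scramble untreated replicates 2 and 3) and 1267 to 2254 in UV-PAPC cells (1267 without OLR1 siRNA UV-PAPC replicate 1, 1372 without scramble UV-PAPC replicate 3). Among genes above the median signal, 4 other pathway genes were called with UV-PAPC under OLR1 siRNA and 9 with OLR1 siRNA in untreated cells. In UV-PAPC cells the 6 arrays alone gave 4, and repeated quantile normalization gave 15 averaged over treatments. Deviations of same-numbered replicates of different groups gave r from -0.22 to 0.11, with 2 of 12 pairs over 0.1. Differently numbered arrays spread wider. OLR1 siRNA UV-PAPC replicate 2 with scramble UV-PAPC replicate 3 gave the highest r, 0.27. OLR1 siRNA UV-PAPC replicate 1 with that same array gave the lowest, -0.26. These correlations over all genes thus gave no sign of a pairing by number in the group pairs compared. OLR1 itself read highest on replicate 1 in every group. Whether arrays share a batch across numbers was not tested. With the replicate block, 8 other pathway genes in place of 5 were called with OLR1 siRNA in untreated cells, and 4 members with UV-PAPC under each siRNA, as without it. The causes were not tested. GREM1, BMP2 and ID2, whose means lay below the median gene mean, were not tested in the setting that kept genes above it.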

Other observations

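Averaged over treatments, OLR1 siRNA changed 26 of the 84 other pathway genes (8 rose and 18 fell, 31%). This comparison was added after the data had been seen. Of all genes, 23% passed (12.9% rose and 10.2% fell). With 1 array left out, 15 to 23 of the 84 passed, and 3349 to 4215 of the 18417 genes tested. Repeated quantile normalization gave 15 of the 84, so none of these fits reached 26. The receptor genes moved both ways: TGFBR2 (-0.57), BMPR2 (-0.24) and the activin and nodal receptor gene ACVR1C (-0.21) fell, while ACVR2A (0.29), ACVR1 (0.23) and ACVR1B (0.15) rose. Ligand genes that passed all fell, 7 of 29 measured, among them TGFB1 (-0.30), GDF5 (-0.23) and LEFTY1 (-0.23). Those of the SMAD list that passed all rose, 4 of 14, among them SMURF1 (0.25), SMAD3 (0.24) and MAP3K7 (0.17). Of the antagonist genes that passed, the sclerostin gene SOST (-0.31), DAND5 (-0.19) and BMPER (-0.14) fell, and FSTL1 (0.23) rose. Calls were followed through the alternatives for 21 of the 26 genes, and 14 kept them in every setting. The ligand gene AMH lost its call in 13 of 18 settings, BMPER in 13 of 17 and DAND5 in 12 of 17. The target gene ATOH8 lost its call in 10 of 17 settings, ACVR1B in 8 of 18 and MAP3K7 in 7 of 18.

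Averaged over siRNAs, UV-PAPC changed 8 of the 84 genes (2 rose and 6 fell, 9.52%), where 14% of all genes passed. TCF4, an E protein that ID proteins bind, was among those that fell (-0.28, adjusted p = 0.0146). It read 5.69, 5.61 and 5.85 in OLR1 siRNA cells with UV-PAPC, against 6.14, 5.92 and 5.92 in untreated OLR1 siRNA cells, and 5.77, 5.89 and 5.82 in scramble cells with UV-PAPC, against 6.38, 6.05 and 5.94 in untreated scramble cells. Every UV-PAPC array lay below the untreated arrays of the same siRNA, and TCF4 passed under neither siRNA alone (adjusted p = 0.146 under OLR1 siRNA and 0.112 under scramble siRNA). The SMAD anchor gene ZFYVE9 rose (0.19, adjusted p = 0.0187).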
